A study of Mus musculus with 14 samples.

Results

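Pja1 encodes Praja1, a RING-type E3 ubiquitin ligase of the brain. It was examined here beside 9 other genes for ubiquitin ligases or ligase scaffolds of neural tissue, namely its paralog Pja2, the RING ligase genes Rlim, Trim32 and Mib1, the HECT ligase genes Huwe1, Ube3a, Nedd4 and Nedd4l, and the cullin gene Cul3. The 10 genes were listed by symbol and known function, with no expression value in the rule. They were chosen, however, with earlier results of these data known. All 10 were found among the 55450 genes of the expression table and passed the filter on low values that left 18059 genes for testing. The RNA came from the hippocampus of female C57BL/6J mice aged 10 weeks, sequenced as poly(A) libraries, 1 per mouse. There were 3 Δ3102 mice, which lacked the estrogen receptor GPR30 (gene Gper1) in the whole body after CRISPR/Cas9 editing, 4 AG-KO mice (GPR30 fl/fl;GFAP-Cre), in which the astrocyte promoter GFAP drove Cre, 4 NG-KO mice (GPR30 fl/fl;NSE-Cre), in which the promoter of neuron-specific enolase drove Cre, and 3 WT mice with none of these mutations. No library came from mice with the floxed allele or a Cre transgene alone, so in both conditional lines the loss of GPR30 and the transgene cannot be told apart. Whether mice of a group were littermates is not stated in the labels.

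A ubiquitin ligase is the last enzyme of a cascade in which an E1 enzyme activates ubiquitin, an E2 enzyme carries it, and the E3 ligase chooses the protein to be tagged. RING ligases bring the loaded E2 to the substrate, HECT ligases first take the ubiquitin onto a cysteine of their own, and cullins are scaffolds that hold a RING subunit and exchangeable substrate adaptors. In neurons and glia such tags control the turnover of synaptic proteins, kinase subunits and transcription factors, and UBE3A is known as the protein lost in Angelman syndrome. Whole tissue was sequenced, so fewer cells of a type and less RNA per cell cannot be told apart in any value below.

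Pja1 and Pja2 are close paralogs, which bears on whether reads of one gene could be counted for the other. Pja1 (ENSMUSG00000034403) lies on the minus strand at chrX:99465734-99471273 of GRCm38, and Pja2 (ENSMUSG00000024083) on the minus strand at chr17:64281005-64331916. The sequences below code for the RING fold, read from the GENCODE M21 models of the 3 genes on GRCm38, and are shown because the paralogs are more alike there than over the whole proteins. The capitals mark the codons of the cysteines and histidines that bind zinc. The stretch lies in 1 exon at chrX:99466592-99466714 in Pja1, is split by an intron within chr17:64283518-64287102 in Pja2, and lies in 1 exon at chrX:103962536-103962658 in Rlim, which has the same kind of fold and serves as an outside example. All 3 are on the minus strand.
Pja1: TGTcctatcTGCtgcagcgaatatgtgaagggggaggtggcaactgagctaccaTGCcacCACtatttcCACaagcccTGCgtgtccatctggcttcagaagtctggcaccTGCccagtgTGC
Pja2: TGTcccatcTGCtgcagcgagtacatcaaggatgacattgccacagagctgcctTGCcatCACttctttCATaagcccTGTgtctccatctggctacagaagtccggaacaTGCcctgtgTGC
Rlim: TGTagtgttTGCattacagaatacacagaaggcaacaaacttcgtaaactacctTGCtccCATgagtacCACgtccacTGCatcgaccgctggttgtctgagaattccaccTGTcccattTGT
Over these 123 bases Pja1 and Pja2 were identical at 97 (78.9%), and their 41 encoded residues at 36 (87.8%), against 48.3% of residues over the whole length of the shorter protein. Pja1 and Rlim were identical at 63 of the 123 bases and 17 of the 41 residues. Over their whole coding sequences, the longest run that Pja1 and Pja2 shared without a mismatch was 23 bases. Among genes of the expression table, leaving out those with few counts in every library, none overlapped Pja1, Pja2, Rlim, Huwe1, Mib1 or Cul3. By contrast, 4 antisense models run over Ube3a and 1 over Nedd4l, and Trim32 lies within Astn2 on the other strand. Nedd4 overlaps a predicted model on its own strand. The libraries mark strand, but whether the counting used it is not stated in the sources used here, so the values of Ube3a, Nedd4l, Trim32 and Nedd4 may hold reads of those partners.

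FPKM, the number of fragments scaled to the length of the exons and the depth of the library, sets the levels of different genes side by side. Averaged over the 14 mice, the level was highest for Trim32 (51.1 FPKM), Pja2 (42.4) and Pja1 (36.2), followed by Nedd4 (19.1), Cul3 (17.0), Huwe1 (13.6), Mib1 (7.09), Nedd4l (4.64), Rlim (3.44) and Ube3a (0.877). The order of close neighbours is not firm, since single mice of Nedd4 and Cul3 overlapped widely and the order of Pja1 and Pja2 turned with genotype, as described below. The exon model by which the fragments were divided was 20626 bases long for Ube3a, against 9856 for its longest transcript, so its level per transcript is understated. The same holds for Nedd4l (17659 and 7787 bases), Nedd4 (10973 and 5499), Huwe1 (23507 and 14579) and, to a lesser degree, Pja2 (6657 and 4740), whereas the lengths of Pja1 are close (3324 and 3038).

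The libraries held between 44527024 and 62669865 counts. Gper1 itself was listed at 0.0686, 0.145 and 0.0124 FPKM in Δ3102 mice, at 0.540 to 1.38 FPKM in AG-KO mice and 0.975 to 1.41 FPKM in NG-KO mice, against 0.797, 1.15 and 3.05 FPKM in WT mice, so the whole-body deletion was visible in the tissue and the conditional deletions were not separate from WT. The summed neuron markers (6 of 6 found) were steady, at 4634 to 5264 depth-scaled counts (CPM) over all mice, and the astrocyte markers (7 of 7 found) spanned 3165 to 4203 CPM. Other markers of brain tissue moved with genotype. The 6 oligodendrocyte markers summed to 1250 to 2003 CPM in NG-KO mice, against 2047 to 4783 CPM in WT mice, with no overlap. The sums of the 4 markers of oligodendrocyte precursors were below WT in every Δ3102 and NG-KO mouse, and those of the 5 choroid plexus markers in every NG-KO mouse. The choroid plexus sums ran from 27.4 to 1978 CPM over all mice, with the highest in Δ3102 replicate 1. The 6 markers of other brain regions summed to 123.3 to 163.3 CPM in AG-KO mice, against 99.5 to 110.7 CPM in WT mice, again with no overlap.

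Markers of tissues outside the brain moved too. The 6 hepatocyte markers summed to 6.95 to 841 CPM in Δ3102 mice, 0.979 to 201.8 CPM in AG-KO mice and 9.92 to 257 CPM in NG-KO mice, against 593 to 772 CPM in WT mice, so each mouse of both conditional lines lay below each WT mouse. The 5 skeletal muscle markers summed to 875 to 1113 CPM in Δ3102 mice, 7.98 to 403 CPM in AG-KO mice and 17.2 to 373 CPM in NG-KO mice, against 40.3 to 910 CPM in WT mice. Red-cell markers were lower in every AG-KO mouse (145.9 to 353.6 CPM) than in WT mice (405.5 to 929.9 CPM). The 4 testis markers, in these libraries of female mice, summed to 0.535 to 110.6 CPM in Δ3102 mice and 4.64 to 30.7 CPM in AG-KO mice. Their sums were 0.073 to 68.4 CPM in NG-KO mice, against 1.46 to 111.2 CPM in WT mice. No marker of these lists was at 0 in every library, and the part of these signals in the results below was not tested.

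Pja1 was lower in both lines that lose GPR30 in astrocytes, while most neuronal knockouts resembled WT mice. It stood at 19.9, 14.8 and 19.7 FPKM in Δ3102 mice, at 14.7, 22.6, 22.4 and 27.4 FPKM in AG-KO mice and at 57.4, 61.9, 57.2 and 25.0 FPKM in NG-KO mice, against 56.0, 45.9 and 61.4 FPKM in WT mice. Every Δ3102 and AG-KO mouse thus lay below every WT mouse, with no overlap. Among NG-KO mice, 3 lay within or just above the WT range, and replicate 4 lay within the AG-KO range. That mouse also had the lowest sums of the 14 for astrocyte (3165 CPM), oligodendrocyte (1250 CPM) and dentate granule markers (80.5 CPM), whose part in its Pja1 level was not tested. The study picked Pja1 on these same libraries as a gene that changed in Δ3102 and AG-KO but not in NG-KO mice, so its contrasts with both WT and NG-KO mice are a description here and are not independent evidence. The study also followed PJA1 in hippocampi of the 3 knockout lines by qRT-PCR and Western blot. It further reported less PJA1 after virally delivered Cre deleted GPR30 in astrocytes. Those measurements are not part of these libraries.

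Relative to WT mice, the fitted log2 fold change of Pja1 was -1.58 (SE 0.31) in Δ3102 mice and -1.28 (SE 0.28) in AG-KO mice, which correspond to 0.334 and 0.411 times the WT level. In NG-KO mice it was -0.10 (SE 0.28). The unadjusted p was 0.000196 in Δ3102 mice, where Pja1 ranked 8th of 18059 genes, and 0.000516 in AG-KO mice, where it ranked 77th. Neither passed after Benjamini-Hochberg adjustment of edgeR's quasi-likelihood test over all genes (adjusted p = 0.426 and 0.118). NG-KO replicate 4, which enters through the shared estimate of the spread, decided one of these calls. Without it, Pja1 was called lower in Δ3102 mice than in WT mice (log2 fold change -1.58, SE 0.21, edgeR adjusted p = 0.0299). DESeq2, run on the same counts, called Pja1 in both comparisons, at an adjusted p of 0.000139 for the whole-body knockout and 0.00106 for AG-KO mice. DESeq2 called 30 and 408 genes in them, and edgeR 2 and 4.

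The levels of Pja1 in the 4 genotypes followed the order Δ3102 (18.1 ± 2.9 FPKM, SD over 3 mice), AG-KO (21.8 ± 5.2, 4 mice), NG-KO (50.4 ± 17.1, 4 mice) and WT (54.4 ± 7.9, 3 mice). Between the lowest neighbours, AG-KO minus Δ3102 was 0.30 on the log2 scale (SE 0.28, edgeR adjusted p = 0.738), within their spread. The NG-KO and WT levels likewise differed by less than their spread. Across the gap in the middle, which the selection of Pja1 also used, the fitted log2 fold change was -1.19 for AG-KO against NG-KO mice (SE 0.26, unadjusted p = 0.000603, edgeR adjusted p = 0.111) and -1.48 for Δ3102 against NG-KO mice (SE 0.29, unadjusted p = 0.000225, edgeR adjusted p = 0.169). Both comparisons share the NG-KO mice, and neither passed the threshold. Without NG-KO replicate 4 both did, at log2 fold changes of -1.42 (edgeR adjusted p = 0.0108) and -1.71 (edgeR adjusted p = 0.00617). DESeq2 called both with every mouse included (adjusted p = 0.000985 and 6.02e-05), among 430 and 81 genes called.

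**Figure D1:**
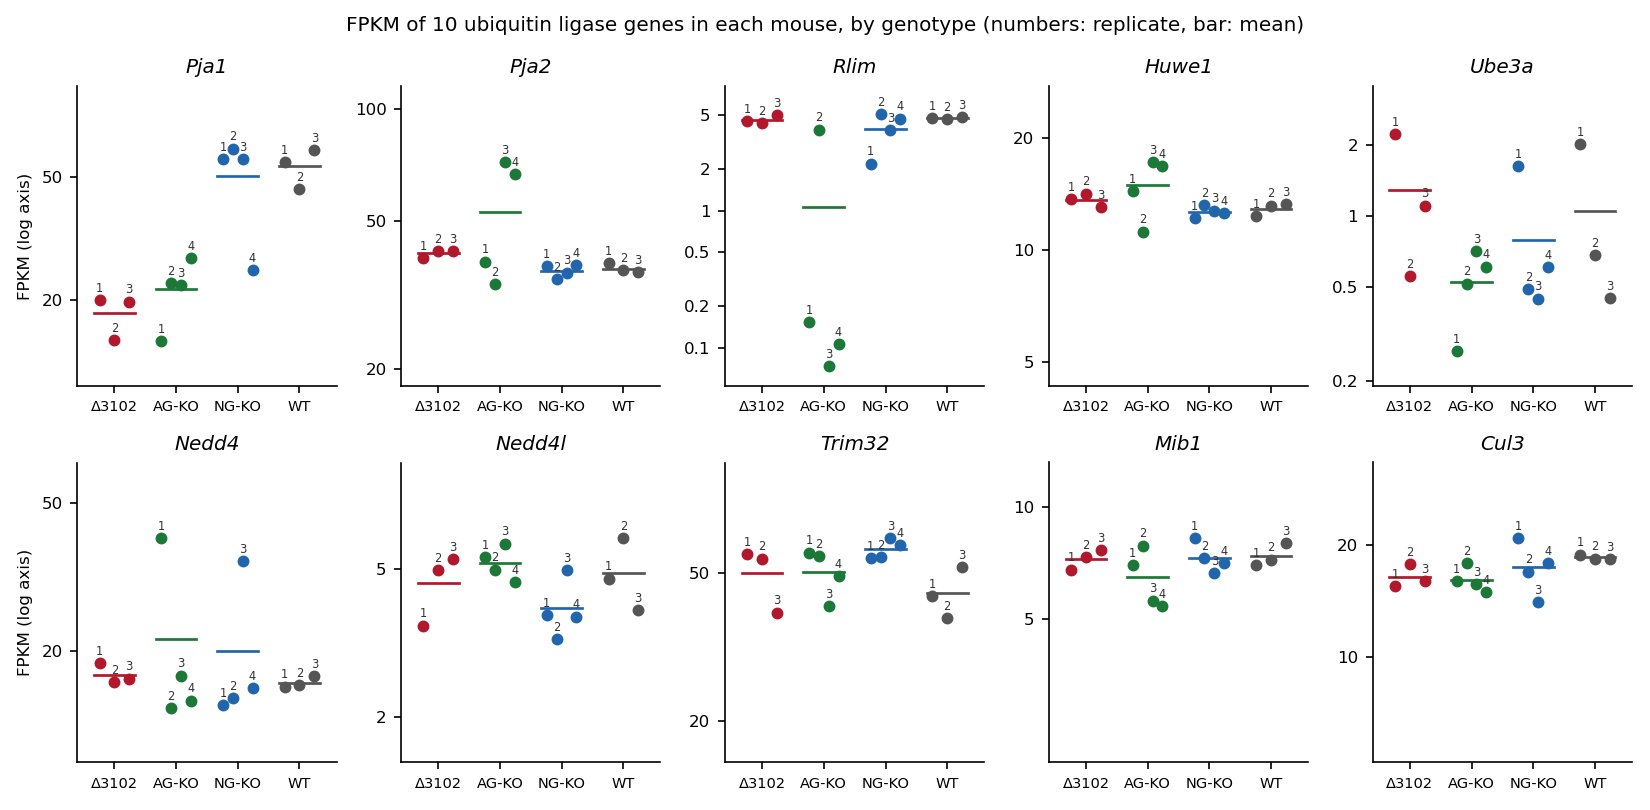
FPKM of the 10 genes in each mouse (vertical log axes, 1 panel per gene, scales differ), with genotypes from left to right as Δ3102, AG-KO, NG-KO and WT, points numbered by replicate and bars at the mean. Pja1 lies at 14.7 to 27.4 FPKM in all Δ3102 and AG-KO mice and at 25.0 FPKM in NG-KO replicate 4, and Rlim lies below 0.2 FPKM in AG-KO replicates 1, 3 and 4.

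Pja2 encodes Praja2, which in mammalian cells tags regulatory subunits of protein kinase A (PKA) and thereby prolongs cAMP signalling. It did not follow its paralog. Pja2 stood at 39.8, 41.5 and 41.6 FPKM in Δ3102 mice, at 38.9, 33.8, 72.1 and 66.8 FPKM in AG-KO mice and at 37.7, 34.9, 36.3 and 38.0 FPKM in NG-KO mice, against 38.4, 36.9 and 36.4 FPKM in WT mice. The high values were those of AG-KO replicates 3 and 4, and the other AG-KO mice lay near or below the rest. The log2 fold change was 0.55 in AG-KO against WT mice (SE 0.22, unadjusted p = 0.0299, edgeR adjusted p = 0.295) and 0.56 in AG-KO against NG-KO mice (SE 0.21, unadjusted p = 0.0182, edgeR adjusted p = 0.257). Both rested on those mice. Without AG-KO replicate 3 the values were 0.35 against WT (edgeR unadjusted p = 0.107) and 0.36 against NG-KO mice (edgeR unadjusted p = 0.080), and without AG-KO replicate 4 they were 0.42 (edgeR unadjusted p = 0.0849) and 0.42 (edgeR unadjusted p = 0.0673). The comparison with WT also passed an unadjusted p of 0.05 in only 9 of the 14 fits without 1 mouse, since leaving out any WT mouse ended it, and it missed that level with limma. AG-KO replicates 3 and 4 stood at an extreme of the 14 mice in several marker sums. They had the lowest hepatocyte sums (0.979 and 1.02 CPM) and skeletal muscle sums (9.05 and 7.98 CPM), and the highest astrocyte sums (4097 and 4203 CPM) and endothelial sums (169.7 and 191.7 CPM). The part of these in the Pja2 values was not tested. Each Δ3102 mouse lay above each WT mouse, though by little (log2 fold change 0.14, SE 0.24).

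Within a mouse, the ratio of Pja1 to Pja2 FPKM cancels differences in depth between libraries. The ratio of the Δ3102 mice was 0.50, 0.356 and 0.475, and that of the AG-KO mice 0.378, 0.669, 0.311 and 0.409. NG-KO mice had ratios of 1.52, 1.78, 1.58 and 0.657, against 1.46, 1.24 and 1.68 in WT mice. Pja2 was thus the more abundant paralog in each Δ3102 and AG-KO mouse and in NG-KO replicate 4, and Pja1 in the remaining NG-KO mice and each WT mouse. With each gene's longest transcript as the length, a choice made after seeing the data, the ratios were 0.779 times as large and that of WT replicate 2 was 0.968, so Pja1 was above Pja2 in 5 mice in place of 6. Because Pja1 was picked on these libraries, the ratio carries no test.

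**Figure D2:**
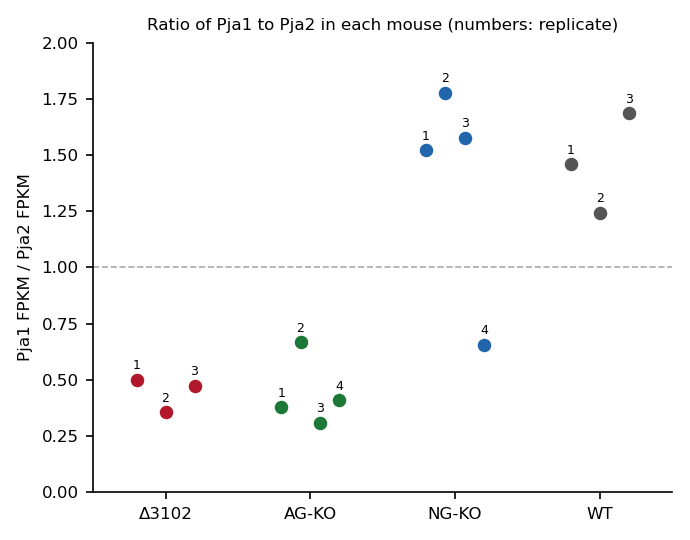
Ratio of Pja1 to Pja2 FPKM (vertical axis, linear) in each mouse of the Δ3102, AG-KO, NG-KO and WT genotypes, with points numbered by replicate and a dashed line at equal levels. All Δ3102 and AG-KO mice and NG-KO replicate 4 lie below the line, between 0.311 and 0.669, and the other NG-KO and the WT mice lie above it, between 1.24 and 1.78.

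Rlim, on the minus strand at chrX:103957163-103981284, encodes a RING ligase (also called RNF12) that in the mouse is known for its role in imprinted inactivation of the X chromosome. It was nearly missing from 3 of the 4 AG-KO libraries. Its level was 4.50, 4.35 and 4.99 FPKM in Δ3102 mice, 0.153, 3.89, 0.0735 and 0.106 FPKM in AG-KO mice and 2.21, 5.09, 3.85 and 4.70 FPKM in NG-KO mice, against 4.72, 4.65 and 4.83 FPKM in WT mice. The AG-KO values rested on 77, 1908, 35 and 60 counts, against 2728 to 2943 counts in WT mice, so the low values were not at 0 and the gap was far beyond counting error. AG-KO replicate 2 stood apart from its group, yet still below every WT mouse.

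The test of Rlim depended on that single mouse and on the model. With all 4 AG-KO mice the log2 fold change in edgeR was -2.15 against WT mice (SE 1.01, unadjusted p = 0.0533, edgeR adjusted p = 0.355) and -1.91 against NG-KO mice (SE 0.96, edgeR adjusted p = 0.401). With limma on log2(FPKM + 0.1) and every mouse kept, it was -3.47 against WT mice (limma unadjusted p = 0.0011, limma adjusted p = 0.140). Against NG-KO mice limma gave -3.155 (limma unadjusted p = 0.0013, limma adjusted p = 0.128). Without AG-KO replicate 2, Rlim was called lower in AG-KO mice in both comparisons, at -5.35 against WT mice (SE 0.32, edgeR adjusted p = 2.23e-05) and -5.10 against NG-KO mice (SE 0.31, edgeR adjusted p = 9.33e-06). The Rlim values of Δ3102 mice overlapped those of WT mice, with a log2 fold change of -0.04, whose SE of 1.07 comes from a spread estimated over all 4 genotypes. Pja1 and Rlim therefore differed in their patterns, since Pja1 was at 22.6 FPKM in AG-KO replicate 2 and at 14.7 to 27.4 FPKM in the rest of the group.

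Trim32, at chr4:65604986-65616238, encodes a tripartite-motif ligase that in the mouse acts in neural progenitors and in muscle. It stood at 56.2, 54.5 and 39.1 FPKM in Δ3102 mice, at 56.6, 55.3, 40.6 and 48.9 FPKM in AG-KO mice and at 54.9, 55.2, 61.9 and 59.3 FPKM in NG-KO mice, against 43.2, 37.7 and 51.7 FPKM in WT mice. Each NG-KO mouse was above each WT mouse, while the other genotypes overlapped with WT. The NG-KO fold change was 0.40 on the log2 scale (SE 0.14, unadjusted p = 0.0135, edgeR adjusted p = 0.405), and 0.30 without WT replicate 2 (edgeR unadjusted p = 0.0722). The marker sums of oligodendrocytes, their precursors, choroid plexus and hepatocytes, given above, also separated NG-KO from WT mice. Their part in the Trim32 values was not tested. Astn2, the gene around Trim32 on the other strand, had 1914 to 2509 counts in NG-KO mice, against 1467 to 2907 counts in WT mice, which overlap.

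Cul3, at chr1:80264923-80340480, encodes the cullin that binds BTB-domain adaptors such as KEAP1 and the KLHL proteins. Its level was 15.5, 17.7 and 16.0 FPKM in Δ3102 mice, 16.0, 17.8, 15.6 and 14.9 FPKM in AG-KO mice and 20.8, 16.9, 14.003 and 17.9 FPKM in NG-KO mice, against 18.8, 18.3 and 18.3 FPKM in WT mice. All Δ3102 and AG-KO mice were below all WT mice, but the differences were small, with log2 fold changes of -0.17 in Δ3102 mice (SE 0.12, edgeR adjusted p = 0.9997) and -0.17 in AG-KO mice (SE 0.11, edgeR adjusted p = 0.502). Mib1 encodes the ligase that tags Notch ligands in the signal-sending cell. It ranged from 6.79 to 7.68 FPKM in Δ3102 mice, 5.41 to 7.89 FPKM in AG-KO mice and 6.65 to 8.25 FPKM in NG-KO mice, against 6.98 to 8.00 FPKM in WT mice, and no comparison of it reached an unadjusted p of 0.05.

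Among the HECT ligases, Huwe1 encodes a very large enzyme whose substrates include N-MYC and MCL1. It stood at 13.7, 14.2 and 13.1 FPKM in Δ3102 mice, at 14.4, 11.2, 17.3 and 16.8 FPKM in AG-KO mice and at 12.2, 13.2, 12.8 and 12.6 FPKM in NG-KO mice, against 12.4, 13.2 and 13.3 FPKM in WT mice. As with Pja2, AG-KO replicates 3 and 4 were the highest and replicate 2 was the lowest. The log2 fold change of AG-KO against NG-KO mice was 0.26 (SE 0.12, unadjusted p = 0.0483, edgeR adjusted p = 0.347), and without AG-KO replicate 2 it was 0.38 (SE 0.08) and called (edgeR adjusted p = 0.0406). Without AG-KO replicate 3 it was 0.17 (edgeR unadjusted p = 0.171) and without replicate 4 0.19 (edgeR unadjusted p = 0.142). Of the 14 fits without 1 mouse, 12 gave an unadjusted p above 0.05. The marker sums in which AG-KO replicates 3 and 4 were extreme, given with Pja2, apply here too, and their part was not tested.

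Nedd4 encodes the founding member of a family of HECT ligases that bind membrane proteins through WW domains. It was uneven within the conditional lines. Nedd4 stood at 18.6, 16.5 and 16.9 FPKM in Δ3102 mice, at 40.2, 14.1, 17.2 and 14.7 FPKM in AG-KO mice and at 14.3, 15.0, 34.9 and 15.9 FPKM in NG-KO mice, against 16.1, 16.2 and 17.1 FPKM in WT mice. AG-KO replicate 1 and NG-KO replicate 3 thus stood far above the other mice of their own groups, which lay near the WT values, and no comparison of Nedd4 reached an unadjusted p of 0.05.

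Nedd4l encodes NEDD4-2, a relative of NEDD4 known for its control of the epithelial sodium channel. It ranged from 3.52 to 5.31 FPKM in Δ3102 mice, from 4.61 to 5.85 FPKM in AG-KO mice and from 3.24 to 4.96 FPKM in NG-KO mice, against 3.88 to 6.04 FPKM in WT mice. AG-KO mice were above NG-KO mice by 0.43 on the log2 scale (SE 0.17, unadjusted p = 0.0269, edgeR adjusted p = 0.286), with NG-KO replicate 3 inside the AG-KO range. The unadjusted p was above 0.05 in 4 of the 14 fits without 1 mouse, those without AG-KO replicate 3 or NG-KO replicate 1, 2 or 4.

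Ube3a encodes the E3 ligase that neurons of the mouse express mainly from the maternal allele. It was at 2.21, 0.557 and 1.10 FPKM in Δ3102 mice, 0.267, 0.516, 0.710 and 0.609 FPKM in AG-KO mice and 1.62, 0.489, 0.447 and 0.607 FPKM in NG-KO mice, against 2.01, 0.680 and 0.447 FPKM in WT mice. Replicate 1 was the highest mouse of the Δ3102, NG-KO and WT groups and the lowest of the AG-KO group. No comparison reached an unadjusted p of 0.05. Among the 4 opposite-strand models over it, 9330162G02Rik held 558 to 1208 counts in every library, against 310 to 2961 counts of Ube3a. Counts of the others are not given here.

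**Figure D3:**
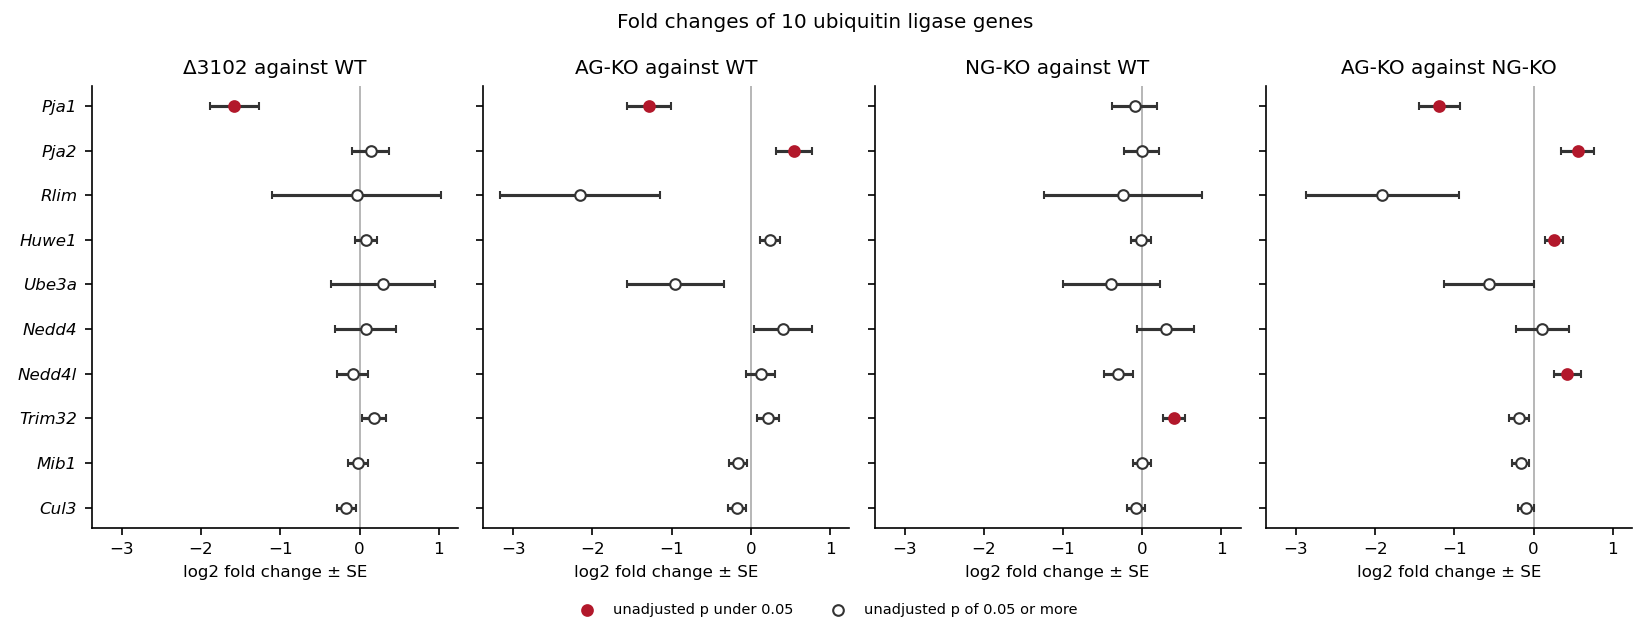
Log2 fold change with its standard error (horizontal axes) for each of the 10 genes (rows) in Δ3102 against WT, AG-KO against WT, NG-KO against WT and AG-KO against NG-KO mice, filled where the unadjusted p was under 0.05. Pja1 sits at -1.58, -1.28, -0.10 and -1.19 in the 4 panels, the widest bars are those of Rlim, and no point passed the adjusted threshold.

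Over the 10 genes, no member passed an adjusted p of 0.05 in edgeR in any comparison, while DESeq2 called Pja1 in 4 of them. Of genes given an adjusted p, DESeq2 called 30 of 18021 in Δ3102 and 408 of 17322 in AG-KO against WT mice. Against NG-KO mice it called 430 of 17670 in AG-KO and 81 of 18021 in Δ3102 mice. DESeq2 gave no p-value for Rlim in at least 3 comparisons, namely Δ3102 against WT, AG-KO against WT and AG-KO against NG-KO mice. Of all genes tested, edgeR called 0.0111% in Δ3102 against WT, 0.0221% in AG-KO against WT, 0.072% in NG-KO against WT, 0.111% in AG-KO against NG-KO and 0.0609% in Δ3102 against NG-KO mice. At an unadjusted p under 0.05, 1 of the 10 passed in Δ3102 against WT mice (Pja1, lower), beside 4.45% of all genes. In AG-KO against WT mice 2 passed (Pja1, lower, and Pja2, higher), beside 14.4%. In NG-KO against WT mice 1 passed (Trim32, higher), beside 9.16%. In AG-KO against NG-KO mice 4 passed (Pja1, lower, and Pja2, Huwe1 and Nedd4l, higher), beside 14.1%, and in Δ3102 against NG-KO mice 1 passed (Pja1, lower), beside 6.46%.

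The groups did not overlap for 3 members in Δ3102 against WT mice (Pja1, Pja2 and Cul3), beside 11.5% of all genes. They did not overlap for 3 in AG-KO against WT mice (Pja1, Rlim and Cul3), beside 13.3%, and for 1 in NG-KO against WT mice (Trim32), beside 10.9%. No member was separate in AG-KO against NG-KO mice, beside 6.77%, and 2 were in Δ3102 against NG-KO mice (Pja1 and Pja2), beside 8.2%. The median log2 fold change of the 10 genes was 0.03 in Δ3102, -0.02 in AG-KO and -0.04 in NG-KO mice against WT mice, beside 0.00, -0.01 and -0.02 over all genes tested.

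Spread within a genotype was wide for some members. The highest mouse of at least 1 genotype had 2 or more times the level of the lowest for 5 of the 10 genes, namely Pja1 (2.48 times, in NG-KO mice), Pja2 (2.13, AG-KO), Nedd4 (2.86, AG-KO), Ube3a (4.49, WT) and Rlim (53.0, AG-KO). The same held for 32.0% of the 13869 genes with a mean of at least 1 FPKM, a set that leaves out Ube3a. The biological coefficient of variation that edgeR fitted was lowest for Cul3 (0.128), Mib1 (0.130) and Huwe1 (0.137) and highest for Rlim (0.869), against a median of 0.230 over all genes tested, and that of Pja1 was 0.265.

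Genes with a profile like that of Pja1 over the 14 mice were Zfp623 (Pearson r = 0.82), Nim1k (0.82), Fam168a (0.79), Dctn6 (0.79) and Htatsf1 (0.79), the 5 highest of 11808 eligible genes on the scale of log2(FPKM + 0.1). The lowest were Nedd9 (-0.88), Rgl1 (-0.85) and Adra2a (-0.79). These mice share genotype, depth and tissue content, so the values are a description across 14 libraries. On deviations from the genotype means, which remove the difference between genotypes, r was 0.42 to 0.58 for the first 5 and -0.44 to -0.69 for the other 3. Fam168a, for example, ranged from 21.3 to 23.0 FPKM in Δ3102 mice, 19.1 to 30.6 FPKM in AG-KO mice and 21.5 to 40.1 FPKM in NG-KO mice, against 25.0 to 41.3 FPKM in WT mice, and NG-KO replicate 4 was the lowest of its group. Adra2a, the gene of the alpha-2A adrenergic receptor, was at 4.42 FPKM in NG-KO replicate 4, the highest of its group, and ranged from 3.01 to 4.36 FPKM in Δ3102 mice and 3.42 to 4.43 FPKM in AG-KO mice, against 1.42 to 2.87 FPKM in WT mice. None of the other 9 ligases was close, with r between -0.35 (Huwe1) and 0.37 (Rlim).

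**Figure D4:**
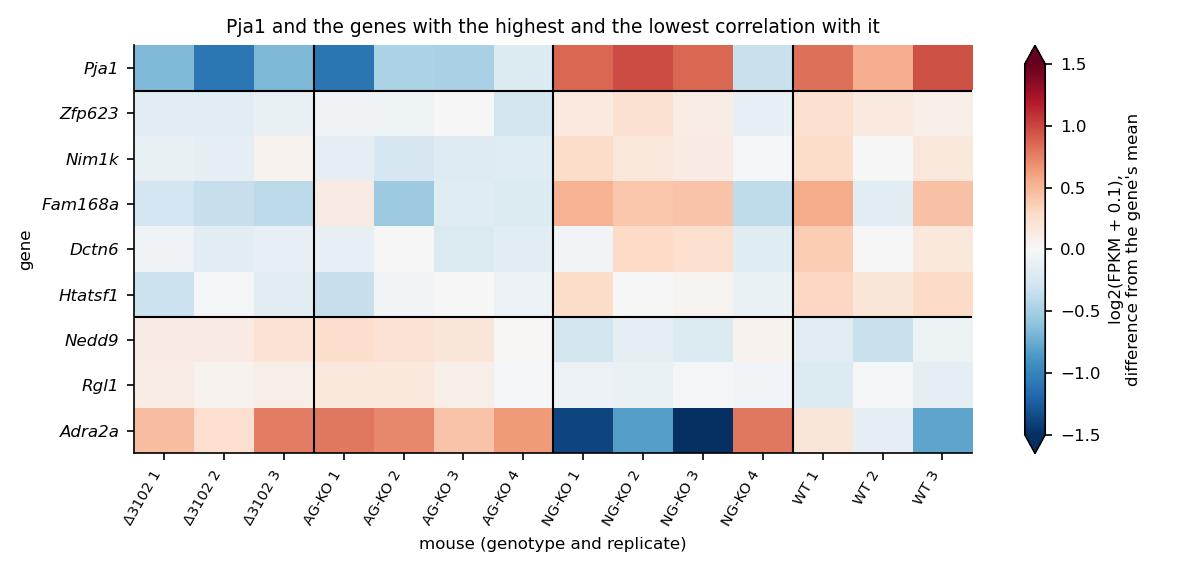
Log2(FPKM + 0.1) of Pja1, the 5 genes with the highest and the 3 with the lowest correlation with it (rows), shown by colour as the difference from each gene's mean in each of the 14 mice (columns, by genotype). NG-KO replicate 4 departs from the other NG-KO mice in Pja1 (25.0 FPKM), Fam168a (21.5 FPKM) and Adra2a (4.42 FPKM), and colours saturate at a difference of 1.5.

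The wider ubiquitin pathway and genes linked to it were followed through 12 lists with 122 genes, of which 117 were tested. Besides ubiquitin, E1, E2 and ligase genes, the lists held ligase partners and substrates, Notch genes, and PKA catalytic subunits with CREB factors. All are called pathway genes below. None passed an adjusted p of 0.05 in edgeR in a comparison with WT mice. At an unadjusted p under 0.05, 1 gene was higher and 2 were lower in Δ3102 mice (2.56% of the 117), 12 were higher and 7 lower in AG-KO mice (16.2%) and 7 were higher and 6 lower in NG-KO mice (11.1%), which stand beside 4.45%, 14.4% and 9.16% of all genes. The median log2 fold change of the 117 genes was 0.02, 0.03 and 0.00 in the 3 lines.

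Of the ubiquitin genes themselves, Ubb was the most abundant, at 853 ± 59 FPKM in Δ3102, 870 ± 31 in AG-KO and 840 ± 45 in NG-KO mice, against 827 ± 8 in WT mice, with no comparison at an unadjusted p of 0.05. Rps27a, which encodes ubiquitin fused to a ribosomal protein, averaged 32.4 ± 3.0 FPKM in Δ3102, 29.1 ± 8.8 in AG-KO and 31.1 ± 6.0 in NG-KO mice, against 48.2 ± 18.6 in WT mice. Its unadjusted p was 0.0148 in AG-KO and 0.0288 in NG-KO mice (edgeR adjusted p = 0.243 and 0.483), and the WT mice varied most.

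Of the E2 genes, Ube2j1, whose product works at the endoplasmic reticulum, was at 32.4 ± 3.4 FPKM in Δ3102, 32.4 ± 3.1 in AG-KO and 33.2 ± 2.9 in NG-KO mice, against 28.7 ± 0.6 in WT mice (unadjusted p = 0.0343 in AG-KO and 0.0236 in NG-KO mice). Of 26 E2 genes tested, 2 were higher and 3 lower at an unadjusted p under 0.05 in AG-KO mice, beside 14.4% of all genes. In NG-KO mice 2 were higher, beside 9.16%, and in Δ3102 mice none was called, beside 4.45%. Hecw2, a HECT ligase gene of the NEDD4 family, averaged 1.33 ± 0.16 FPKM in Δ3102, 1.31 ± 0.10 in AG-KO and 1.34 ± 0.54 in NG-KO mice, against 0.875 ± 0.137 in WT mice (unadjusted p = 0.0465 in AG-KO and 0.0454 in NG-KO mice). Trim8, a relative of Trim32, averaged 13.2 ± 1.0 FPKM in Δ3102, 14.9 ± 0.6 in AG-KO and 14.9 ± 0.9 in NG-KO mice, against 12.7 ± 1.1 in WT mice (unadjusted p = 0.0101 in AG-KO and 0.0159 in NG-KO mice). The edgeR adjusted p of these 3 genes in AG-KO and NG-KO mice was 0.214 or more.

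Cul2, the scaffold of the VHL ligase, was the one pathway gene at an unadjusted p under 0.05 in all 3 lines. It averaged 10.5 ± 0.2 FPKM in Δ3102, 9.64 ± 1.49 in AG-KO and 10.9 ± 0.4 in NG-KO mice, against 12.7 ± 0.7 in WT mice, with log2 fold changes of -0.27, -0.37 and -0.21 (edgeR adjusted p = 0.9997, 0.167 and 0.538). The 3 comparisons share the WT mice. Tnfaip1, a BTB adaptor of CUL3, averaged 14.1 ± 0.4 FPKM in Δ3102, 14.6 ± 0.9 in AG-KO and 12.8 ± 1.4 in NG-KO mice, against 10.3 ± 3.2 in WT mice, with unadjusted p = 0.0291 in Δ3102 and 0.0093 in AG-KO mice (edgeR adjusted p = 0.9997 and 0.210). The other 21 CUL3 partners tested included none at an unadjusted p under 0.05 in Δ3102 mice, beside 4.45% of all genes. In AG-KO mice Spop was lower (edgeR unadjusted p = 0.0162), beside 14.4% of all genes. In NG-KO mice Klhl9 was lower (edgeR unadjusted p = 0.0148) and Klhl22 higher (edgeR unadjusted p = 0.0217), beside 9.16%.

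Genes for substrates and partners of the Praja ligases can be read beside Pja1 and Pja2 only at the RNA level. Of the 5 tested PJA1 partners, Serpina3n, a serine protease inhibitor of reactive astrocytes that was singled out after its values were seen, averaged 30.8 ± 2.6 FPKM in Δ3102, 40.3 ± 5.2 in AG-KO and 27.9 ± 4.1 in NG-KO mice, against 30.2 ± 7.5 in WT mice, with unadjusted p = 0.0227 in AG-KO mice (log2 fold change 0.44, edgeR adjusted p = 0.271). Maged1, the most abundant of them, averaged 99.7 FPKM in Δ3102, 101.9 in AG-KO and 104.8 in NG-KO mice, against 99.4 in WT mice. Of the PKA regulatory subunits on which PJA2 acts, Prkar2a averaged 8.20 ± 0.45 FPKM in Δ3102, 8.28 ± 0.87 in AG-KO and 8.48 ± 0.68 in NG-KO mice, against 7.33 ± 0.28 in WT mice (unadjusted p = 0.0336 in AG-KO and 0.0214 in NG-KO mice, edgeR adjusted p = 0.307 and 0.447). Prkar2b, also singled out after its values were seen, averaged 4.15 ± 0.24 FPKM in Δ3102, 7.89 ± 1.33 in AG-KO and 8.12 ± 1.47 in NG-KO mice, against 6.62 ± 0.72 in WT mice (log2 fold change -0.67 in Δ3102 mice, unadjusted p = 0.0012, edgeR adjusted p = 0.865).

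Among substrates named for the other ligases, Arc, an activity-regulated gene of neurons proposed as a target of UBE3A, averaged 23.5 ± 1.3 FPKM in Δ3102, 54.3 ± 26.4 in AG-KO and 25.8 ± 7.5 in NG-KO mice, against 26.1 ± 5.3 in WT mice. Its log2 fold change in AG-KO mice was 1.07 (SE 0.38, unadjusted p = 0.0149, edgeR adjusted p = 0.244), beside the wide SD among AG-KO mice given above. Mcl1, a substrate gene of HUWE1, averaged 23.6 FPKM in Δ3102, 22.6 in AG-KO and 24.3 in NG-KO mice, against 26.2 in WT mice, and its 3 unadjusted p-values were all above 0.05. Of the 24 pathway genes named for their abundance, Arc and Cul1 were at an unadjusted p under 0.05 in a comparison with WT mice. Cul1, the scaffold of SCF ligases, averaged 23.3 ± 0.4 FPKM in Δ3102, 20.3 ± 1.6 in AG-KO and 21.9 ± 1.5 in NG-KO mice, against 24.0 ± 1.5 in WT mice (log2 fold change -0.21 in AG-KO mice, edgeR adjusted p = 0.231). The log2 fold changes of the other 22 lay between -0.19 and 0.43 in the 3 comparisons.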

How the data were processed

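Per the file headers, the authors deposited for each of 14 hippocampal libraries a raw count and an FPKM value per gene in 1 table. Per the submitters' processing notes the tools were cutadapt 1.9, HISAT2 2.0.4, UMI-tools and StringTie 1.3.4d on GRCm38; which program counted the reads, and with which strand setting, is not given in the sources used here. The deposited FPKM followed the counts divided by the exon length of each gene, so both hold the same information.

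Genes with at least 0.5 FPKM in at least 3 libraries were tested. Deposited counts were scaled by TMM and fitted with edgeR 4.0.16 (quasi-likelihood test, 1 mean per genotype, all 14 libraries, R 4.3.3), with p-values adjusted by the Benjamini-Hochberg method over all 18059 genes. Libraries held 44527024 to 62669865 counts, and the lowest count of the 10 genes in a library was 35 (Rlim). The p-values set the difference between genotype means against the spread between mice, estimated over all 14 libraries. Each of 91 pairs of libraries differed. The code was tested on simulated data. Alternatives were no filter, a filter at 1 FPKM, median-ratio scaling, DESeq2 1.42.0, limma 3.58.1 on log2(FPKM + 0.1) or log2(FPKM + 1), only the 2 groups compared, a replicate block, and each library left out.

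The 10 genes, the pathway lists and the marker lists were chosen with earlier results of these data known. Named genes were the 10, the 5 highest and 3 lowest correlations with Pja1 among genes with a mean of at least 1 FPKM and no predicted-model symbol, and, per pathway list, genes at an unadjusted p under 0.05 in 1 direction in at least 2 comparisons with WT, and the 2 most abundant (some given by their range). Marker sums are TMM-scaled CPM.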

Additional observations from a re-analysis of the deposited data

Results flagged for a closer look

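In groups of 4 mice, a value was marked where its gap to the nearest mouse exceeded Dixon's critical value as a share of the group's range. For normally distributed values, chance alone gives this in about 1 of 20 groups. Of the 20 groups (10 genes in AG-KO and NG-KO mice), 5 were marked. The share marked over all genes was not computed, so the count cannot be read as particular to these 10 genes. Pja1 in NG-KO replicate 4 was low, at 25.0 FPKM (gap 0.872 of the range). Rlim in AG-KO replicate 2 was high, at 3.89 FPKM (0.979). Ube3a in NG-KO replicate 1 was high, at 1.62 FPKM (0.863). Nedd4 was high in AG-KO replicate 1, at 40.2 FPKM (0.880), and in NG-KO replicate 3, at 34.9 FPKM (0.922). The cause of these values was not tested.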

How the results depend on the processing

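No member passed the adjusted threshold under any setting other than DESeq2 and the fits without single mice. DESeq2 gave 1 adjusted call, Pja1, in Δ3102 against WT, AG-KO against WT, AG-KO against NG-KO and Δ3102 against NG-KO mice. It gave no p-value for Rlim in at least the first 3 of these comparisons. Leaving out 1 mouse gave 0 to 1 adjusted calls in Δ3102 against WT, AG-KO against WT and Δ3102 against NG-KO mice and 0 to 2 in AG-KO against NG-KO mice, from the fits without NG-KO replicate 4 or AG-KO replicate 2. With only the 2 groups compared, unadjusted calls numbered 2 in Δ3102 against WT, 1 in AG-KO against WT and 2 in Δ3102 against NG-KO mice, and leaving out 1 mouse gave 1 to 2 in Δ3102 against WT, 1 to 5 in AG-KO against WT, 0 to 2 in NG-KO against WT, 1 to 6 in AG-KO against NG-KO and 1 to 2 in Δ3102 against NG-KO mice.

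Of the 50 fold changes of the 10 genes in these 5 comparisons, 32 kept their sign under all 22 alternatives and 18 changed it when a mouse was left out, the largest of them 0.56 on the log2 scale. Pja1 in NG-KO against WT mice was one, at -0.21 to 0.13. Its fold changes against WT ran from -1.69 to -1.46 in Δ3102 and -1.41 to -1.12 in AG-KO mice. Replicate numbers were not taken to pair the mice, and the labels do not state whether they do. Deviations of same-numbered mice correlated at -0.23 to 0.22 over 15 pairs, with 5 above 0.1. Mice of different numbers were not compared in this way, so these values do not decide the question. With a replicate block, 0 adjusted calls were made and the unadjusted calls numbered 1, 2, 1, 4 and 1, but not for the same genes. The block ended the unadjusted calls of Pja2 in AG-KO against WT (edgeR adjusted p = 0.531) and Huwe1 in AG-KO against NG-KO mice (edgeR adjusted p = 0.438) and added Rlim in both, at -3.27 (edgeR adjusted p = 0.363) and -3.07 (edgeR adjusted p = 0.302). Precision is limited by the 3 or 4 mice per group.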
